A study of Mus musculus with 17 samples.

Results

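Slc6a19, Wdr78, Tdrp, Nhsl1, Tctex1d1, Sgk3 and Dgkeos are 7 genes whose signal was far below that of heterozygous control thymi in Tcf1-/- thymi without a tumor, in those with a lymphoma, or in both. They were picked from 18194 genes because of those differences, so their distance from the control group is described here and not tested. Each gene was read from its brightest probe set by the mean of the 17 arrays, and the 7 genes had 15 probe sets of their own among 45101. All 7 passed the filter on low signal, as did 13756 genes in all. The question was which of the 7 stayed low in both Tcf1-/- groups, and how closely they followed the markers of CD4+CD8+ double-positive thymocytes.

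RNA was measured in homogenized thymus from 17 C57Bl/6 mice: 5 Tcf1+/- control mice carrying 1 ΔVII allele (wt/ΔVII), 4 Tcf1-/- mice (ΔVII/ΔVII) without a tumor, and 8 Tcf1-/- mice (ΔVII/ΔVII) with a thymic lymphoma. All groups therefore carried the ΔVII allele, and no wild-type thymus was measured. The deletion is germline and was present in all cells of the thymus. The ages of the mice on the arrays were not given in the sources used here, and the gene encoding Tcf1 itself is not analysed here. The labels name homogenized thymus as the source and the methods homogenized thymocytes, and no cell type was sorted, so fewer cells of a type and less RNA per cell cannot be told apart.

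Tcf1 is an HMG-box factor that binds DNA with a CTTTG core, acts in the nuclear response to Wnt signals, and is needed for thymocytes to progress from the double-negative to the double-positive stage. Double-positive cells, which rearrange and test their T-cell receptor alpha chain, make up most of a normal thymus. The 7 genes belong to no common pathway. Slc6a19 encodes the sodium-dependent neutral amino acid transporter of gut and kidney brush borders. Wdr78 and Tctex1d1 encode an intermediate chain and a Tctex-type light chain related to those of the dynein motors of cilia. Tdrp was named as a testis development-related protein, Nhsl1 is a Nance-Horan syndrome-like protein that binds the WAVE actin regulator, Sgk3 is an endosomal serine/threonine kinase acting beside AKT downstream of PI3 kinase, and Dgkeos is a transcript on the strand opposite Dgke.

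Promoter sequences are shown for Tctex1d1 and Slc6a19, because these were the pair of the 7 with the most similar signal over the arrays (Pearson r = 0.956, n = 17 arrays). Both are the 250 bases before the annotated start in RefSeq (build GRCm38.p6), 5′ to 3′ on the strand of the gene. Capitals mark matches on either strand to CTTTGA and CTTTGT (the Tcf/Lef core), CANNTG (the E-box) and AGGTCA (the ROR half-site). The Tctex1d1 window lies at chr4:102978453-102978702 on the plus strand, and the Slc6a19 window at chr13:73692637-73692886 on the minus strand, within the annotated span of Slc6a19 itself.
Tctex1d1: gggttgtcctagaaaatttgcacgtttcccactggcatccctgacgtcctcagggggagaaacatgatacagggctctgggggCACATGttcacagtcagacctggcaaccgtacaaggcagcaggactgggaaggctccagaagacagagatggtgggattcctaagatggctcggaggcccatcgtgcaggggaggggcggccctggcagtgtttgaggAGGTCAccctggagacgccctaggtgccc
Slc6a19: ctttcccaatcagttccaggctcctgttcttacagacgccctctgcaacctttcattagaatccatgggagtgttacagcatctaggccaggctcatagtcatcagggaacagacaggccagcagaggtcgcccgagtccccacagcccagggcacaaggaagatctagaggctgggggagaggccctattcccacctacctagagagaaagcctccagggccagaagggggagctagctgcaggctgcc
The Tctex1d1 window held 1 CANNTG and 1 AGGTCA, which did not overlap, and the Slc6a19 window held none of the motifs. Of the 7 genes, 4 were matched in the promoter table, with 5 windows. None of the 5 contained CTTTGA or CTTTGT, against 27.6% of all 32817 windows of this length with at least 1 of them. CANNTG was present in 66.2% of all windows and AGGTCA in 14%. Of the other windows, the Dgkeos window held 1 CANNTG, and of the 2 Nhsl1 windows 1 held 4 CANNTG and 1 AGGTCA and the other none. A missing match says only that these letters are not in this window.

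Values below are log2 signals after robust multichip averaging (RMA), given in replicate order for the control and the tumor-free mice, and as lowest, median and highest for the 8 lymphomas. A difference of 1 is a 2-fold change of signal. As a mark of background, the 95th percentile of 44 probe sets for olfactory receptors, which the thymus is not known to use, lay between 4.67 and 5.6 on the 17 arrays. Of the arrays, 4 (control replicates 1 and 2, lymphoma replicates 1 and 2) stood apart, with an interquartile range of 2.93 to 3.06 over all probe sets against 3.49 to 3.75 on the other 13. The tumor-free group held none of them. Signal of Y-linked genes was high in 4 of 5 control, 4 of 4 tumor-free and 2 of 8 lymphoma thymi.

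**Figure D1:**
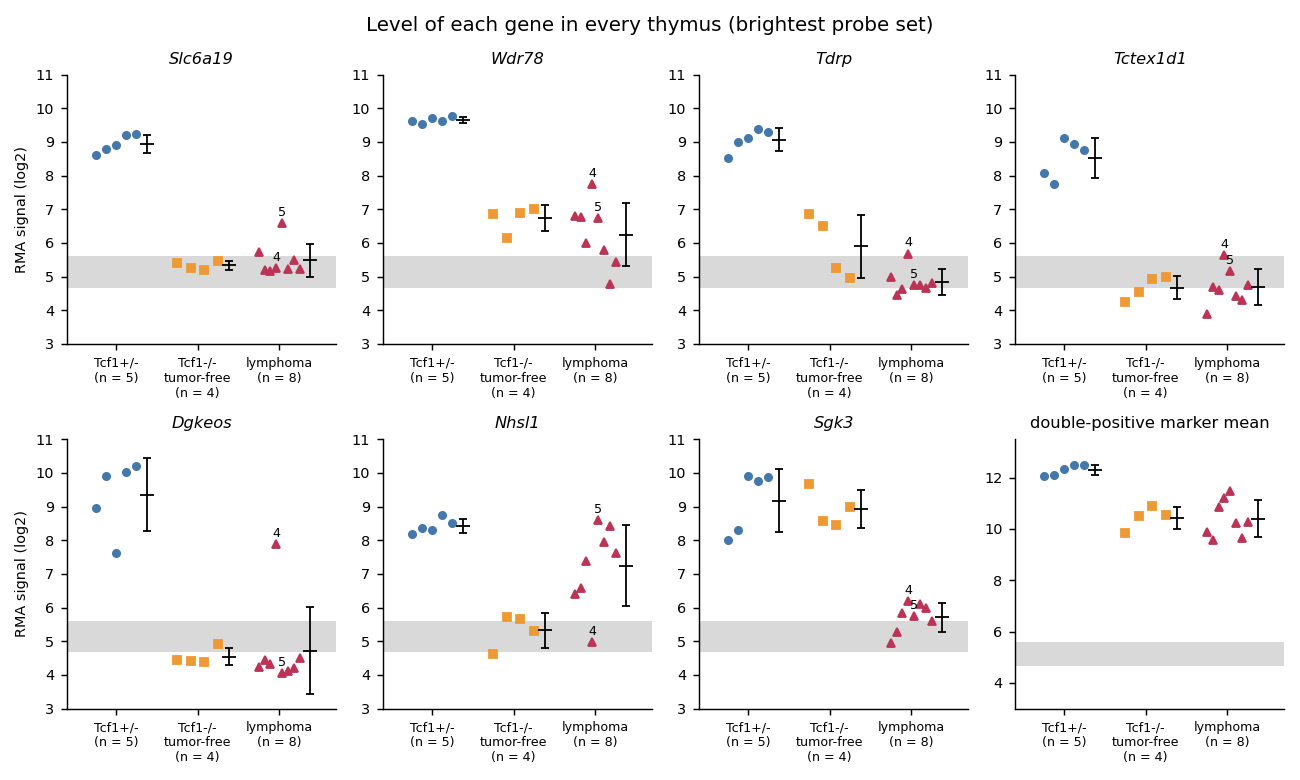
Log2 RMA signal (y axis) of the brightest probe set of each gene in every thymus, and in the last panel the mean of the double-positive markers on its own scale. Circles, squares and triangles are single mice in replicate order, black bars are mean ± SD, the grey band is the range of the olfactory 95th percentile (4.67 to 5.6), and digits name lymphoma replicates 4 and 5. Slc6a19, Wdr78, Tdrp and Tctex1d1 sat below all controls in both Tcf1-/- groups, while Nhsl1 was low mainly in tumor-free thymi and Sgk3 only in lymphomas.

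Of the 7 genes, 5 had a low mean in both Tcf1-/- groups: Slc6a19, Wdr78, Tdrp, Tctex1d1 and Dgkeos. Nhsl1 was lowest in tumor-free Tcf1-/- thymi and spanned up to the control level in lymphomas. Sgk3 overlapped the controls in tumor-free Tcf1-/- thymi and was low in the lymphomas. Without the 4 arrays that stood apart, Sgk3 in tumor-free thymi differed from controls by -0.93. The description of the 7 as low in both groups therefore held for 5 of them. In tumor-free Tcf1-/- thymi 6 of the 7 lay below all controls without overlap, against 6.11% of all genes tested, and in lymphomas 5 of 7 did, against 1.9%. Both comparisons share the 5 control thymi, and both served to choose the genes, so nothing is read from these shares.

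Slc6a19 had a signal of 8.61, 8.78, 8.90, 9.20 and 9.24 in the control thymi, and of 5.39, 5.27, 5.19 and 5.47 in tumor-free Tcf1-/- thymi. The lymphomas ranged from 5.17 to 6.58 with a median of 5.24. All 12 Tcf1-/- thymi were thus well below the controls, in a narrow range apart from lymphoma replicate 5. The mean difference from controls was -3.62 (SE 0.17) in tumor-free thymi, or 12.3-fold lower, and -3.47 (SE 0.23), or 11.1-fold lower, in lymphomas (4 and 8 mice against 5). The second probe set had a mean of 6.38 in controls, 3.43 in tumor-free thymi and 3.61 in lymphomas, and in none of the 12 Tcf1-/- thymi was it above the olfactory 95th percentile. The neighbouring transporter Slc6a18 was near background in all groups, with means of 4.82, 4.67 and 4.81.

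Wdr78 had the tightest controls, at 9.61, 9.52, 9.71, 9.62 and 9.76. Tumor-free Tcf1-/- thymi gave 6.86, 6.16, 6.88 and 7.01, and the lymphomas ranged from 4.77 over a median of 6.36 to 7.74. No Tcf1-/- thymus reached the controls, but the lymphomas were spread more widely than the other groups. The mean differences from controls were -2.92 (SE 0.18, n = 4 and 5) and -3.40 (SE 0.39, n = 8 and 5). All 12 thymi remained above the olfactory 95th percentile of their own array. The other probe set of Wdr78 did not exceed the olfactory 95th percentile in any of the 17 thymi, with means of 4.17, 3.96 and 4.19, so the pattern rests on the brighter of the pair.

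Tdrp, with a single probe set, gave 8.52, 8.99, 9.13, 9.38 and 9.30 in controls. Among tumor-free Tcf1-/- thymi it gave 6.86, 6.50, 5.26 and 4.96, and in lymphomas from 4.44 over a median of 4.75 to 5.68. The tumor-free mice thus divided into 2 higher and 2 lower values, and most lymphomas lay at or under the lower pair. The mean differences from controls were -3.17 (SE 0.38, n = 4 and 5) in tumor-free thymi and -4.22 (SE 0.21, n = 8 and 5) in lymphomas. Signal stayed above the olfactory 95th percentile in 3 of 4 tumor-free thymi and in 3 of 8 lymphomas.

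Tctex1d1, also with a single probe set, gave 8.08, 7.74, 9.13, 8.94 and 8.75 in controls. It gave 4.24, 4.54, 4.93 and 4.98 in tumor-free Tcf1-/- thymi and from 3.88 over a median of 4.64 to 5.64 in lymphomas. Its control values were lower on the 2 arrays that stood apart, and both Tcf1-/- groups lay far below either set. The mean was lower by 3.85 (SE 0.30) in each comparison. None of the 4 tumor-free thymi and 3 of the 8 lymphomas exceeded the olfactory 95th percentile, so in most of these thymi the signal was not above background and the size of the difference is limited by it.

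In Dgkeos controls gave 8.96, 9.91, 7.61, 10.03 and 10.21, and tumor-free Tcf1-/- thymi 4.44, 4.42, 4.39 and 4.93. Of the lymphomas, 7 lay between 4.06 and 4.50, and lymphoma replicate 4 alone had 7.89, above control replicate 3. The mean differences were -4.80 (SE 0.48, n = 4 and 5) and -4.63 (SE 0.62, n = 8 and 5). The second probe set had the same order, with means of 7.96, 4.22 and 4.71 and again a single high lymphoma at 6.89. Outside lymphoma replicate 4, no Tcf1-/- thymus gave a Dgkeos signal above the olfactory 95th percentile.

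Nhsl1 gave 8.18, 8.37, 8.31, 8.76 and 8.50 in controls and 4.61, 5.73, 5.65 and 5.30 in tumor-free Tcf1-/- thymi. The lymphomas ranged from 4.98 over a median of 7.50 to 8.59. The tumor-free thymi were all far below the controls, whereas 6 of 8 lymphomas were below all controls and the other 2 reached the control range. The mean differences from controls were -3.10 (SE 0.24, n = 4 and 5) and -1.19 (SE 0.50, n = 8 and 5). This pattern rests on 1 of 4 probe sets. The next brightest had means of 6.22 in controls, 6.23 in tumor-free thymi and 6.58 in lymphomas, and the other 2 did not exceed the olfactory 95th percentile in any thymus.

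Sgk3 gave 8.01, 8.30, 9.90, 9.75 and 9.89 in controls and 9.68, 8.56, 8.44 and 8.99 in tumor-free Tcf1-/- thymi. The lymphomas ranged from 4.96 over a median of 5.79 to 6.20. Controls and tumor-free thymi overlapped, and all lymphomas lay below both. The mean differences from controls were -0.25 (SE 0.45, n = 4 and 5) and -3.46 (SE 0.34, n = 8 and 5). The 2 low controls were the arrays that stood apart. Without the 4 such arrays the tumor-free difference was -0.93 and the lymphoma difference -3.93, and within those 4 arrays the lymphoma difference was -3.05. The other 2 probe sets had the same order of groups, with means of 8.79, 8.48 and 6.08, and of 7.70, 7.37 and 4.91.

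The lymphomas were also set against the tumor-free Tcf1-/- thymi. The values of these 12 arrays had served to choose the genes, through their distance from controls, so the differences of the 7 genes are given here as a description as well, with limma's intervals and no p. Sgk3 was lower in lymphomas, by -3.21 (SE 0.27, 95% interval -3.80 to -2.62), and 8 of 8 lymphomas were below all tumor-free thymi, as was the case for 6.26% of all genes. The difference lay between -3.36 and -2.95 when single mice were left out. Nhsl1 was higher in lymphomas, by 1.92 (SE 0.57, interval 0.69 to 3.15), with 7 of 8 lymphomas above all tumor-free thymi. It lay between 1.68 (without tumor-free replicate 1) and 2.24 when single mice were left out, but was 0.35 with the next brightest probe set and 1.16 with the Y-linked signal as a covariate.

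The other 5 genes differed less between the Tcf1-/- groups. Tdrp differed by -1.05 in lymphomas (SE 0.34, interval -1.78 to -0.33), with 6 of 8 lymphomas below all tumor-free thymi, and by -1.37 to -0.73 when single mice were left out. For Slc6a19 the difference was 0.15 (interval -0.37 to 0.68), and for Wdr78 it was -0.48 (interval -1.44 to 0.49). For Tctex1d1 it was 0.01 (interval -0.60 to 0.61), between groups whose signal was mostly not above background. For Dgkeos the interval was wide, -1.11 to 1.45 around 0.17, and without lymphoma replicate 4 the difference was -0.28, again with the other thymi at background. The intervals still allow differences between the Tcf1-/- groups, and signal at background sets no limit on a change of the transcript.

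**Figure D2:**
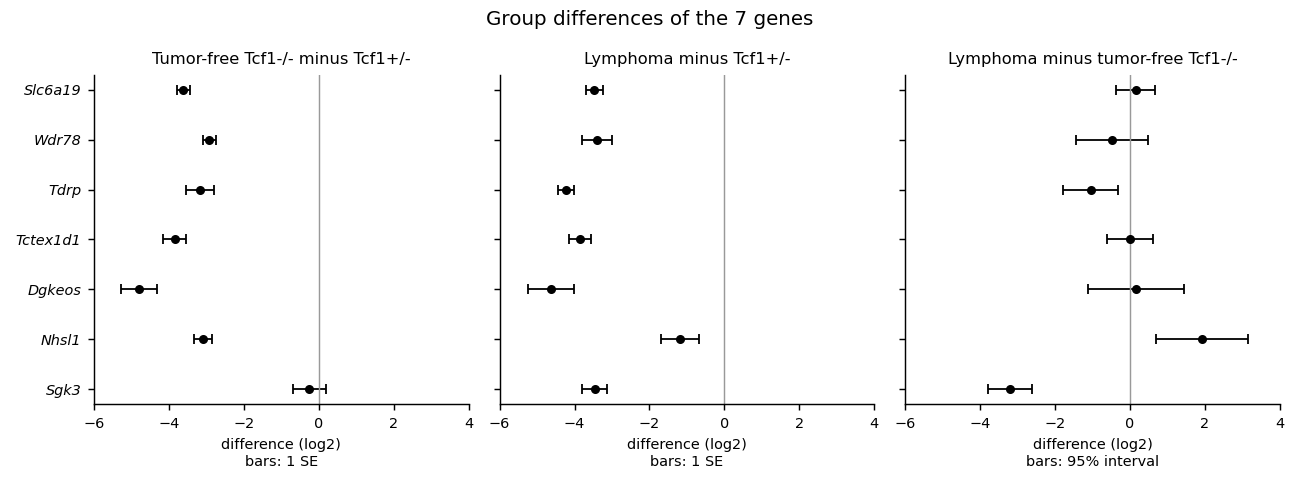
Differences of group means in log2 RMA signal (x axis) for the 7 genes (y axis), in 3 panels. The bars are 1 SE in the comparisons with Tcf1+/-, which served to choose the genes, and the 95% interval in the comparison of the Tcf1-/- groups. In the last panel Sgk3 lies at -3.21, Nhsl1 at 1.92 and the others between -1.05 (Tdrp) and 0.17 (Dgkeos). The values of these arrays also served to choose the genes, so the intervals are a description and not a test.

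Other cell types moved with the Tcf1-/- groups in the same thymi. In tumor-free thymi 8 of 9 B-cell markers, 12 of 12 macrophage and monocyte markers, 6 of 9 dendritic-cell markers and 6 of 7 NK-cell markers rose against controls (limma, adjusted p under 0.05), beside 10.1% of all genes. In lymphomas 8 of 9, 11 of 12, 8 of 9 and 6 of 7 fell against tumor-free thymi, beside 8.35% of all genes. The mean signal of the B-cell markers was 6.40 to 7.03 in controls, 9.01 to 10.92 in tumor-free thymi and 6.12 to 7.39 in lymphomas, and that of the macrophage markers 6.81 to 8.00, 9.01 to 10.89 and 5.90 to 8.49. Of 16 thymic epithelial markers 1 rose and 1 fell in tumor-free thymi and 3 fell in lymphomas against controls, and of 9 fibroblast markers 5 and 2 rose. Of 10 markers of the DN3 stage before the double-positive one, 6 rose and 2 fell in tumor-free thymi, and 5 rose and 2 fell in lymphomas, where 8.49% of all genes rose. Of 9 markers of mature T cells, 4 rose in tumor-free thymi and 7 fell in lymphomas against these. Mean signal of the mature T-cell markers was 8.26 to 8.67 in controls, 8.92 to 10.84 in tumor-free thymi and 7.10 to 8.06 in lymphomas, that of the dendritic-cell markers 6.50 to 6.59, 6.99 to 8.52 and 5.55 to 6.11, and that of the NK-cell markers 6.55 to 7.18, 8.44 to 9.77 and 5.89 to 6.64. The part of these cell types in the differences of the 7 genes, Sgk3 included, was not tested.

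All 14 measured markers of the double-positive stage had lower means in both Tcf1-/- groups than in controls. Their average was 12.3 ± 0.19 (SD, n = 5) in controls, 10.4 ± 0.43 (n = 4) in tumor-free thymi and 10.4 ± 0.72 (n = 8) in lymphomas. In each comparison 12 of the 14 fell (limma, adjusted p under 0.05), against 4.7% of all genes in tumor-free thymi and 4.21% in lymphomas. The exceptions were Arpp21 and Endou. The coreceptor gene Cd4 fell by 2.6 (SE 0.20, adjusted p = 7.105e-05) in tumor-free thymi and fell by 3.31 (SE 0.54, adjusted p = 0.001573) in lymphomas, and the recombinase gene Rag1 fell by 2.11 (SE 0.42, adjusted p = 0.007638) and fell by 2.82 (SE 0.87, adjusted p = 0.04765). None of the 14 passed between lymphomas and tumor-free thymi (limma), and 1 of them, Endou, had an unadjusted p under 0.05. The mean of 12 pan-T markers was lower than in controls by 0.83 in tumor-free thymi and by 0.68 in lymphomas. The differences of Slc6a19, Wdr78, Tdrp, Tctex1d1 and Dgkeos, from -2.92 to -4.80, were beyond the double-positive average of -1.86 and -1.90 in both groups. Since the 5 were chosen for large differences, this order is a description.

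The markers themselves were uneven within single mice. In lymphoma replicate 5, with the highest marker mean of its group, 6 of the 14 markers were at or above the lowest control: Rag1 (13.74), Rag2, Arpp21, Endou, Plxnd1 and Bcl2l1. The other 8 were below all controls there, among them Cd8a at 10.92, Cd8b1 at 11.37, Ccr9 at 11.73 and Satb1 at 13.12. In the other 11 Tcf1-/- thymi 0 to 2 of the markers reached the lowest control. Lymphoma replicate 5 had the highest Slc6a19 (6.58) and Nhsl1 (8.59) of the lymphomas and the lowest Dgkeos (4.06), while Wdr78 at 6.73, Tdrp at 4.75, Tctex1d1 at 5.17 and Sgk3 at 5.75 lay in the range of the other lymphomas. Nhsl1 was in the control range there, and the other 6 genes were below it.

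Among the 8 lymphomas, the signal of each gene was set against the mean of the 14 markers, a relation that the choice of genes did not use. Tctex1d1 had the highest r over the 8 lymphomas, with Pearson r = 0.741 (exact permutation p = 0.03309) and Spearman rho = 0.667 (exact permutation p = 0.08309). Its slope was 0.55 per unit of marker signal (SE 0.20), with an adjusted p of 0.2692 over all genes in limma, and r was 0.279 without lymphoma replicates 5 and 4. For Slc6a19, Wdr78, Tdrp, Sgk3 and Dgkeos r lay between 0.414 and 0.478 (exact permutation p of 0.2338 to 0.4009, rho of -0.0238 to 0.476 with exact permutation p of 0.2431 to 0.9768), and for Nhsl1 it was -0.0658 (p = 0.88, rho = 0.119 with p = 0.793, exact permutation tests). Without replicates 5 and 4, r for these 6 lay between -0.432 and 0.356. Of all genes, 5.17% had an r at least that of Tctex1d1. For Slc6a19, Wdr78, Tdrp, Sgk3 and Dgkeos this share was 21.2% to 25.2%. Of the 8 lymphomas, 3 were above the olfactory 95th percentile for Tctex1d1, 3 for Tdrp and 1 for Dgkeos. The r of these genes is therefore mostly over signal not above background. No slope of the 7 passed after adjustment, and of all genes 0.0218% had a positive slope that did. Unadjusted, the slope of Tctex1d1 had a p of 0.02061 in limma, and 15.2% of all genes had one under 0.05. Replicates 4 and 5, which had the highest marker means (11.2 and 11.5), also had the highest signal of the group in 5 genes (Wdr78, Tdrp, Tctex1d1, Sgk3, Dgkeos) and in 2 genes (Slc6a19, Nhsl1). The second highest lymphoma was close for Sgk3 (6.1 against 6.2) and Nhsl1 (8.42 against 8.59) and far for Dgkeos (4.5 against 7.89). How many of all genes were highest in these thymi was not counted, so nothing is read from it. The slope of Tctex1d1 was 0.39 without replicate 4 and 0.62 without replicate 5. Without both the range of marker means is narrower, so the lower r cannot show whether the relation rested on these 2 thymi. The order of the genes also depended on the array set. With the array set as a covariate, the slope of Wdr78 was 1.29 (SE 0.28, adjusted p = 0.09713 in limma), against 0.62 (SE 0.4) without. With this covariate the slope of Tctex1d1 was 0.53 (SE 0.24, adjusted p = 0.3733 in limma). Without the 4 arrays that stood apart, the slopes were 1.31 (SE 0.3) for Wdr78 and 0.59 (SE 0.19) for Tctex1d1.

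**Figure D3:**
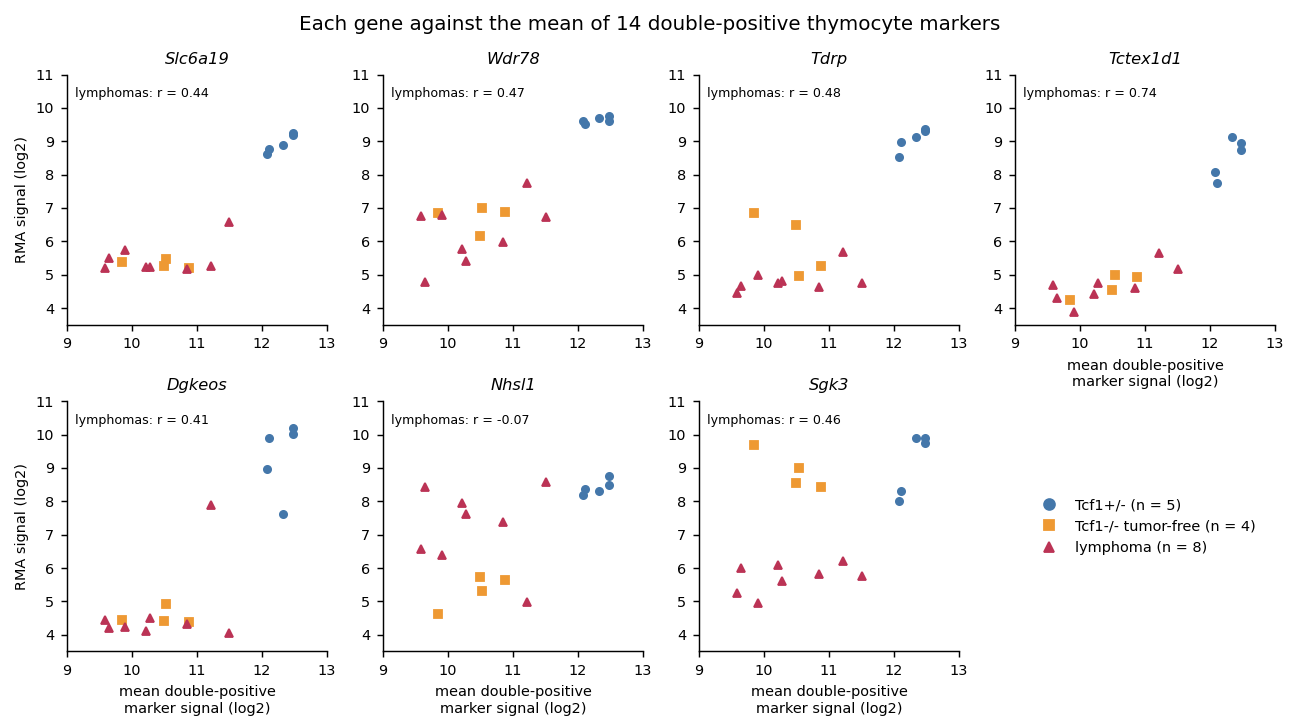
Log2 RMA signal of each gene (y axis) against the mean log2 signal of 14 double-positive markers (x axis), 1 point per thymus, with circles for Tcf1+/-, squares for tumor-free Tcf1-/- and triangles for lymphomas. The Pearson r printed in each panel is over the 8 lymphomas alone, from -0.07 for Nhsl1 to 0.74 for Tctex1d1, and the controls stand apart at high marker signal in all panels.

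Wdr78 and Tctex1d1 lie near each other on mouse chromosome 4, and the genes beside them were tested with limma, since they were not members. In gene order (RefSeq) the tested genes run Sgip1, Tctex1d1, BB031773, Insl5, Wdr78, Mier1, Slc35d1 and Oma1. The expressed sequence BB031773, which overlaps Tctex1d1, fell by 3.23 (SE 0.61, adjusted p = 0.005598) in tumor-free thymi and by 3.20 (SE 0.45, adjusted p = 0.0005118) in lymphomas against controls. Insl5, an insulin-like peptide of the relaxin family, fell by 2.55 (SE 0.50, adjusted p = 0.006984) and fell by 2.94 (SE 0.42, adjusted p = 0.000582). Mier1, a nuclear regulator that recruits histone deacetylases, fell by 1.23 (SE 0.19, adjusted p = 0.002259) and fell by 1.86 (SE 0.38, adjusted p = 0.005763). No Tcf1-/- thymus overlapped the controls for these 3 genes. Leaving out any single mouse changed none of the 3 calls in either comparison, but Mier1 did not pass with its next brightest probe set (-1.12, adjusted p = 0.6 and -2.68, adjusted p = 0.05677).

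Insl5 had the values 7.47, 8.04, 8.67, 8.59 and 8.83 in controls and 4.61, 5.18, 5.92 and 7.37 in tumor-free Tcf1-/- thymi. In lymphomas it lay between 4.77 and 5.06 except in replicates 4 (6.38) and 5 (7.27), the pair with the highest double-positive marker means. BB031773 gave 5.02, 5.28, 7.93, 7.50 and 7.73 in controls, the 2 low values being the arrays that stood apart, and between 3.16 and 3.84 in all 12 Tcf1-/- thymi. It did not reach the olfactory 95th percentile there. Because BB031773 and Tctex1d1 overlap, their probe sets may share a transcript, and both cannot be told apart here.

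The next gene out, Slc35d1, a nucleotide sugar transporter of the endoplasmic reticulum, was added after its values were seen. It fell by 1.05 (SE 0.29, adjusted p = 0.03453) and fell by 1.09 (SE 0.30, adjusted p = 0.02904). These calls were weak: leaving out single mice kept 3 of 9 in tumor-free thymi and 9 of 13 in lymphomas, with adjusted p up to 0.08583 and 0.08508. On the flanks, Oma1 differed by 0.21 (adjusted p = 0.4746) and 0.15 (adjusted p = 0.7725), and Sgip1 by 0.66 (adjusted p = 0.3641) in tumor-free thymi, while Sgip1 rose by 1.62 (SE 0.27, adjusted p = 0.0019) in lymphomas. Farther out, Dnajc6 was lower by 1.48 (adjusted p = 0.07278) in tumor-free thymi and by 3.69 (adjusted p = 0.009195) in lymphomas (limma). Leprot rose by 1.14 (adjusted p = 0.02102) and 0.85 (adjusted p = 0.01251), and Lepr, Pde4b, Dab1 and C8b passed in neither comparison. The 6 consecutive tested genes from Tctex1d1 to Slc35d1 therefore had lower means in both Tcf1-/- groups. Sgip1 and Oma1 directly beside them did not, but Dnajc6 beyond Sgip1 did. Tctex1d1 and Wdr78 were chosen for their low signal, BB031773 may not be separate from Tctex1d1, and Slc35d1 was added for its values. Insl5 and Mier1, the nearest tested neighbours of Wdr78, are thus the genes of the stretch not chosen by their own values. Of these, Mier1 did not pass with its next brightest probe set. The stretch was noticed in these data, and its length was not tested.

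**Figure D4:**
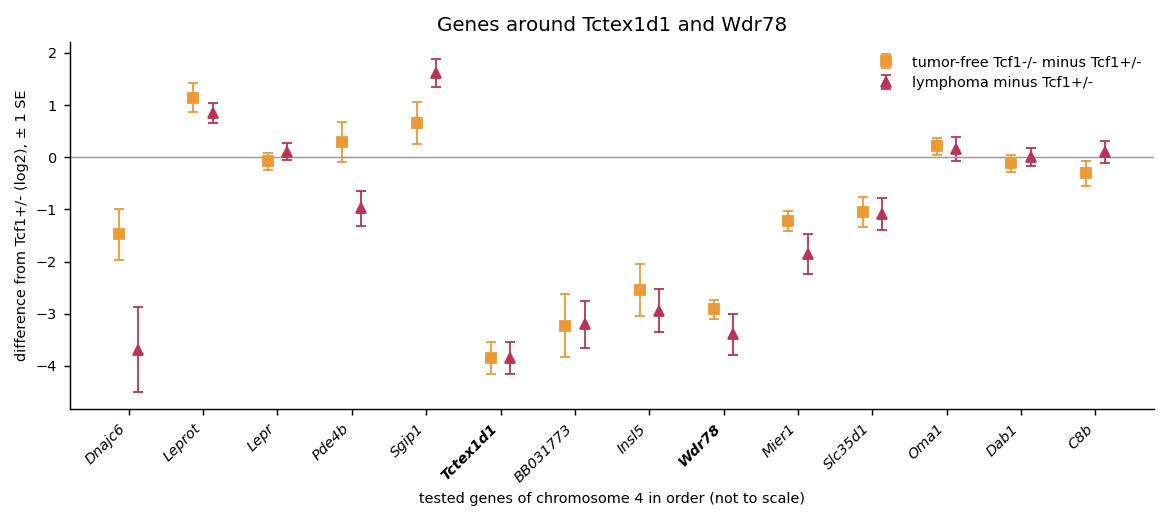
Difference from the Tcf1+/- mean in log2 RMA signal ± 1 SE (y axis) for the tested genes around Tctex1d1 and Wdr78 (bold) in their order on chromosome 4 (x axis, not to scale). Squares are tumor-free Tcf1-/- thymi and triangles lymphomas. The 6 genes from Tctex1d1 to Slc35d1 lie between -1.05 and -3.85 in both, and Sgip1 and Oma1 beside them lie above 0. Farther out, Dnajc6 also lies below 0 in both.

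A second pair of neighbours was Dgkeos and Dgke, the kinase that phosphorylates diacylglycerol carrying arachidonic acid, whose annotated spans overlap on chromosome 11. Dgke gave 8.04, 8.67, 8.73, 9.41 and 9.41 in controls and 6.39, 6.83, 6.78 and 7.39 in tumor-free Tcf1-/- thymi. In lymphomas it lay between 6.01 and 6.94 except in replicate 4, at 8.34, the thymus in which Dgkeos was also high. Dgke fell by 2.0 (SE 0.31, adjusted p = 0.001859) in tumor-free thymi and fell by 2.02 (SE 0.35, adjusted p = 0.002297) in lymphomas, and both calls remained when any single mouse was left out. The deposited table does not give the position or strand of a probe set, so signal of the overlapping transcripts cannot be assigned with certainty.

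Around the other members the picture was mixed. Slc6a19os, which overlaps Slc6a19, fell by 0.59 (SE 0.15, adjusted p = 0.02469) in tumor-free thymi from a control mean of only 4.93, and differed by -0.37 (adjusted p = 0.07104) in lymphomas. Fbxo25, beside Tdrp, fell by 0.82 (SE 0.22, adjusted p = 0.03124) in tumor-free thymi and differed by -0.59 (adjusted p = 0.1795) in lymphomas. Ccdc28a and Hebp2, beside Nhsl1, differed by -0.52 to -0.10 with adjusted p of 0.147 to 0.8982. Beside Sgk3, Vcpip1 differed by -0.39 and -0.32 (adjusted p = 0.4391 and 0.4765), and the small nucleolar RNA host gene Snhg6 rose by 1.57 (SE 0.18, adjusted p = 0.0001445) in lymphomas.

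The related genes were taken from lists of each member's family or pathway. Of 9 tested SLC6 genes and partners, 1 (Slc6a4, the serotonin transporter) rose in tumor-free thymi, by 0.54 (adjusted p = 0.01673), and in lymphomas none passed (limma, 0 of 9 also at an unadjusted p under 0.05). The median of the list differed from controls by -0.04 and 0.04, beside -0.01 and 0.06 over all genes. Of 11 other neutral amino acid transporters, Slc7a7 rose by 1.02 (adjusted p = 0.02475) in tumor-free thymi, and in lymphomas Slc7a5, the large neutral amino acid exchanger, rose by 1.63 (adjusted p = 0.002578) while Slc43a2 fell by 1.45 (adjusted p = 0.00306). Their list medians were 0.30 and 0.34.

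Of 10 tested genes in a list of dynein chains of cilia and related light chains, 1 passed against controls. It was the light chain gene Dynlt3, which is not particular to cilia (0.92, adjusted p = 0.04559, tumor-free), and the list medians were 0.03 and 0.10. Of 11 tested regulators and assembly factors of motile cilia, 1 passed, Dnaaf2 (-0.85, adjusted p = 0.03513, tumor-free), with list medians of -0.04 and 0.04. The low signal of Wdr78 and Tctex1d1 was thus not accompanied by calls in most of the ciliary genes, many of which were near background with list means of 4.74 to 5.53 over all thymi. Of 15 tested NHS-family and WAVE-complex genes, Nhsl2 rose by 1.22 (adjusted p = 0.006876) in tumor-free thymi, where Nhsl1 was lowest, and fell by 1.26 (adjusted p = 0.0007602) in lymphomas against these, where Nhsl1 was higher again. Abi3 fell by 0.62 (adjusted p = 0.03463) in lymphomas against controls, and Rac2 fell by 1.06 (adjusted p = 0.03036) against tumor-free thymi. The medians of that list against controls were 0.09 and -0.17.

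Of 20 tested genes of the SGK and AKT pathway, none passed in tumor-free thymi (limma, 6 at an unadjusted p under 0.05), and in lymphomas the phosphoinositide phosphatase gene Inpp4b fell by 1.18 (SE 0.22, adjusted p = 0.003893) against controls. Against tumor-free thymi Inpp4b fell by 1.42 (adjusted p = 0.003574) and the PI3 kinase subunit gene Pik3cd by 1.52 (adjusted p = 0.04187), while Pdpk1, the kinase that activates AKT and SGK, rose by 0.68 (adjusted p = 0.0421), in a comparison in which 6.34% of all genes rose. The list median in that comparison was -0.35, beside 0.10 over all genes. Of 7 tested diacylglycerol kinases, 2 fell in each comparison with controls, where 4.7% and 4.21% of all genes did. Dgkz fell by 0.71 (adjusted p = 0.01334) beside Dgke in tumor-free thymi, and Dgka fell by 1.76 (adjusted p = 0.002444) beside Dgke in lymphomas. The list medians were -0.62 and -0.37, beside -0.01 and 0.06 over all genes.

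Across all 17 thymi, the 5 genes low in both groups had pairwise Pearson r of 0.88 to 0.956, over samples that fall into separate groups. Nhsl1 had r of 0.321 to 0.652 with these 5 and -0.02 with Sgk3. The genes most like each member were named by r over the 17 arrays, as a description. Cnga1, a cyclic nucleotide-gated channel subunit, was among the closest 3 for Slc6a19, Wdr78 and Dgkeos (r of 0.943, 0.953 and 0.924), with means of 7.94 in controls, 5.67 in tumor-free thymi and 5.77 in lymphomas. Cdk20 was close to Wdr78 and Tctex1d1 (r of 0.932 and 0.951). For Slc6a19 the others were Tctex1d1 and Nfatc3, for Wdr78 Uspl1, for Tctex1d1 Slc6a19 and Degs2, for Tdrp Dhrs3, Tnfrsf1a and Fam78a, and for Dgkeos Wnt8b and Dgke. Nhsl1 was closest to Stat5b (r = 0.935), with means of 10.31, 9.18 and 9.72, followed by Rapgef3 and Ergic3. Sgk3 was closest to Hmgn3 (r = 0.966), with means of 8.85, 8.48 and 5.95, followed by Ccdc88a and Gpr174.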

How the data were processed

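RNA from the homogenized thymi of 17 mice was labelled with biotin and hybridized to Affymetrix mouse genome arrays. The deposited values are log2 signals that the authors normalized and summarized by RMA, and they were used as deposited. Of 45101 probe sets, 34958 had 1 gene symbol in the platform annotation, 932 several and 9147 none, and 64 were controls. Each of 18194 genes was represented by its brightest probe set, and the 13756 genes tested had a signal above the array's own 40th percentile on 4 arrays or more.

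Groups were compared in pairs with limma 3.58.1 in R 4.3.3 (lmFit and eBayes, Benjamini-Hochberg over all tested genes, threshold 0.05). In simulated data with 200 changed genes, the lymphoma and tumor-free comparison recovered 92% of changes of 2 and 52% of changes of 1 (log2). The simulation used independent normal noise and the same SD per gene in both groups. In the data the SD could differ, as for Wdr78 (0.94 in lymphomas, 0.38 in tumor-free thymi), so these rates may not hold there. Slopes on the double-positive marker mean were fitted over the 8 lymphomas, with exact permutation tests over all 40320 orders for r and rho. The number of arrays limits the precision, and each array is a different mouse. The members and the gene lists were chosen with earlier results of these data known. Since values of the same arrays chose the members, no p is given for their differences between groups in the report. Genes named beside the members were their nearest tested neighbours, the 3 with the highest r, the double-positive markers, and up to 4 per list and comparison with the largest called difference.

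Replicate numbers are shared between the groups in the labels. Deviations of same-numbered control and lymphoma mice correlated (r of 0.246 to 0.625, 5 pairs), so these were also fitted with the number as a block. Same-numbered mice of the other comparisons did not (r of -0.286 to 0.12 and -0.189 to 0.091). Between controls and lymphomas, 2 of the 5 were closest to the mouse of their own number. Numbers 1 and 2 of both these groups are the 4 arrays that stood apart, so there a pairing and the array set cannot be told apart. Alternatives were another filter or none, quantile normalization or median centring, the mean of all probe sets or the next brightest, 1 fit over all arrays, Y-linked signal or the array set as a covariate, other markers, and leaving out single mice or the 4 arrays that stood apart. The next brightest probe set, the array set as a covariate in the control comparisons, the unblocked fit over shared numbers and the tests of neighbouring genes were added after seeing the data. Gene order and promoters are from RefSeq (GRCm38.p6). The gene encoding Tcf1 is not analysed here.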

Additional observations from a re-analysis of the deposited data

Results flagged for a closer look

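Of 21 sets of values (7 genes in 3 groups), 4 held a thymus whose gap to the nearest other value was above the 95% critical value of Dixon's test. For a single set of normal values chance gives about 1 in 20. These sets share mice, come from chosen genes with similar signal and lie partly at background. The count is therefore not read against that rate. In lymphoma replicate 4 Dgkeos was at 7.89, the other lymphomas lying between 4.06 and 4.50, and Tdrp was at 5.68, the others between 4.44 and 5.00. In lymphoma replicate 5 Slc6a19 was at 6.58, the others between 5.17 and 5.73. In tumor-free Tcf1-/- replicate 4 Dgkeos was at 4.93, the others between 4.39 and 4.44, all of them below the olfactory 95th percentile of their arrays. Lymphoma replicates 4 and 5 had the highest means of the double-positive markers in their group, 11.2 and 11.5.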

How the results depend on the processing

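Between lymphomas and tumor-free Tcf1-/- thymi, on arrays whose values had also served to choose the genes, the difference of Sgk3 kept its direction under each alternative run. That of Nhsl1 (1.92) was smaller with the Y-linked signal as a covariate (1.16), the next brightest probe set (0.35) and the mean of its probe sets (0.61). It was also smaller in the mice of shared numbers with the replicate block (1.01) or without it (1.01). When single mice were left out it lay between 1.68 and 2.24. That of Tdrp (-1.05) kept its direction under each alternative run. It was -0.71 with the Y-linked signal as a covariate and lay between -1.37 and -0.73 without single mice. Differences near 0 changed sign: Slc6a19 with the Y-linked covariate (-0.11) and without single mice (-0.0049 to 0.2), Wdr78 with the next brightest probe set (0.22) and in mice of shared numbers with the replicate block (0.1) or without (0.1), Tctex1d1 after quantile normalization (-0.02) and without single mice (-0.14 to 0.12), and Dgkeos without single mice (-0.28 to 0.3). No p is given for these differences between the groups. Why the values moved was not tested.

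Against controls, the mean of all probe sets in place of the brightest moved the tumor-free differences of Slc6a19 to -3.28, of Wdr78 to -1.56 and of Nhsl1 to -0.79, and the lymphoma differences of Wdr78 to -1.69 and of Nhsl1 to -0.18. With the next brightest probe set the tumor-free differences were -2.95 for Slc6a19, -0.2 for Wdr78, 0.01 for Nhsl1 and -3.74 for Dgkeos, and the lymphoma differences -2.77 for Slc6a19, 0.02 for Wdr78, 0.36 for Nhsl1, -2.72 for Sgk3 and -3.25 for Dgkeos. The replicate block moved no count of the double-positive markers by over 1.5 times (11 of 14 in tumor-free thymi and 12 of 14 in lymphomas). In all genes the calls between lymphomas and controls were 1747 over all mice, 686 in the mice of shared numbers and 1784 with the block, those of tumor-free thymi 2037, 1595 and 1257, and those between the Tcf1-/- groups 2020, 951 and 584. For the other lists, 75 of 376 recomputed counts moved by over 1.5 times, 66 of them from counts of up to 2, and with the block 5 macrophage and 4 dendritic-cell markers fell in lymphomas against tumor-free thymi, in place of 11 and 8.

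Slopes on the markers, none of which passed in any setting, changed sign for Slc6a19 with pan-T markers (-2.1) and without single mice (-0.14 to 0.45), for Wdr78 with Rag1 and Rag2 (-0.06) or pan-T markers (-0.2), for Nhsl1 with Rag1 and Rag2 (0.25) and without single mice (-0.94 to 0.6), for Sgk3 with the array set as a covariate (-0.03), the mean of its probe sets (-0.2), the next brightest (-0.63) or without the 4 arrays that stood apart (-0.01), and for Dgkeos without single mice (-0.1 to 1.59). Signal near background limits Tctex1d1, Tdrp and Dgkeos, whose differences from controls may be understated.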
